A study of Mus musculus with 6 samples.

Results

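The thrombospondin family was followed through the abdominal aorta of mice with a *Prdm16* knockout in vascular smooth muscle cells (VSMCs). It comprises *Thbs1*, *Thbs2*, *Thbs3*, *Thbs4* and *Comp*, which were taken by gene symbol and are 5 of the 55426 genes in the expression table, 4 of them among the 15775 genes that averaged 0.5 TPM (transcript abundance corrected for length) or more. Polyadenylated RNA was sequenced from 3 control libraries and 3 *Prdm16* knockout libraries, all from male C57BL/6J mice. Controls carried *Myh11*-CreERT2, and the knockout mice (Prdm16SMKO) carried *Myh11*-CreERT2 with Prdm16 fl/fl. *Myh11*-CreERT2 is a tamoxifen-inducible Cre driven by the smooth muscle myosin promoter, whose cassette sits on the Y chromosome, so that only males can be used, and which can act in the smooth muscle of every organ. For aneurysm experiments in the same line, males aged 8 to 10 weeks received tamoxifen by gavage at 75 mg/kg/day over 5 days and were used 2 weeks afterwards. The treatment of the mice behind these libraries is not given separately in the sources used here. The comparison asks which mRNAs of the uninjured aorta differ once VSMCs lack PRDM16, a zinc finger transcription regulator.

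Thrombospondins are secreted, calcium-binding glycoproteins that sit in the extracellular matrix (ECM) without forming its main fibers and act as adapters between collagens, growth factors, proteinases and cell-surface receptors. THBS1 and THBS2 assemble as trimers that bind CD36 and CD47 and restrain blood vessel growth, and THBS1 can also activate latent TGF-β and is stored in platelet granules. THBS3, THBS4 and COMP (cartilage oligomeric matrix protein) assemble as pentamers, are best known from cartilage, tendon and muscle, and bind collagen fibrils. In arteries COMP is made by VSMCs and is a substrate of the proteinase ADAMTS7, and THBS4 has also been described inside the endoplasmic reticulum, where it assists the ATF6 stress response.

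TPM values are corrected for transcript length and add up to the same total in every library, so that levels of different genes can be set side by side. The 45S ribosomal RNA transcripts made up 15.5% to 31.4% of all TPM, mitochondrial genes 15.8% to 27.4%, and 20332 to 22100 genes were above 0. The libraries are labelled with 40 M read pairs on average, and the depth of each is unknown. *Prdm16* itself stood at 33.4, 36.8 and 30.8 TPM in the control libraries, and at 20.8, 27.7 and 14.8 TPM in the Prdm16SMKO libraries, in the order of replicates 1, 2 and 3 used throughout. The groups did not overlap, but the log2 fold change of −0.70 did not pass the test over all genes (limma, Benjamini-Hochberg adjusted p = 0.376). The value adds reads from all exons and from cells other than VSMCs, and in whole tissue fewer cells of a type and less RNA per cell cannot be told apart. VSMC markers added up to 14793 to 25106 TPM in control and 11360 to 17397 TPM in Prdm16SMKO libraries, and none of the 7 was at 0 in all libraries.

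Of the family, *Comp* was lower in Prdm16SMKO mice, to 0.415 of the control mean, and *Thbs1*, *Thbs2* and *Thbs3* did not pass the test. *Thbs4*, the least abundant member, was under the expression minimum and higher in a pair of Prdm16SMKO libraries. Thus 1 of the 4 tested members was called at an adjusted p under 0.05, against 56 of all 15775 genes (0.355%). The share of genes called lower was 0.171%. The test was limma on log2(TPM + 0.5) with adjustment over all genes, and fold changes are Prdm16SMKO against control on that scale. The p-values measure the spread between these 3 libraries a group, and an exact permutation test of 3 against 3 cannot go below 0.1.

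**Figure D1:**
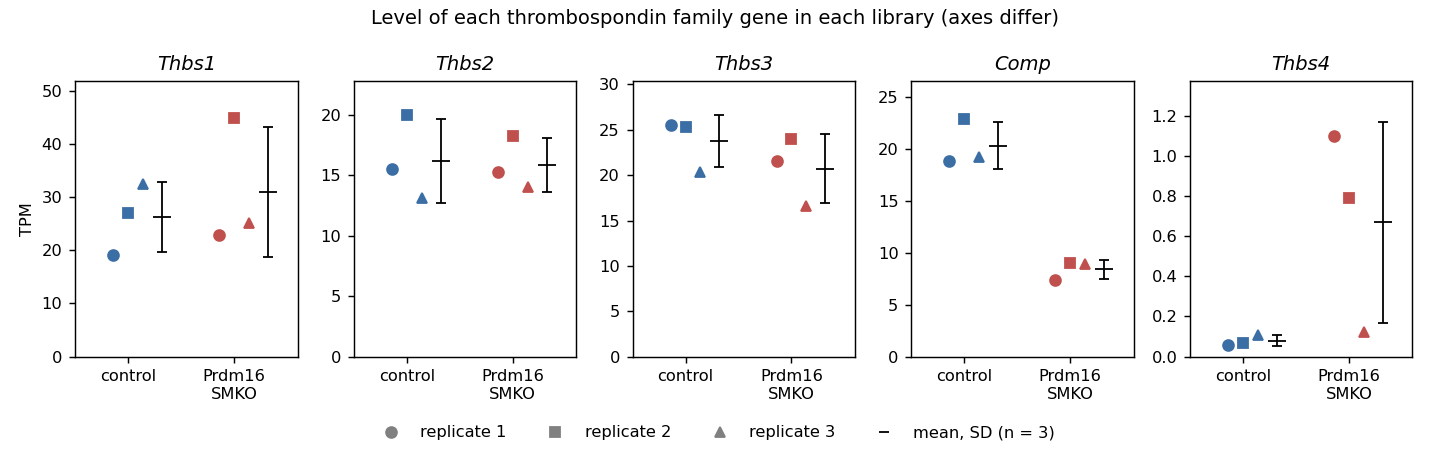
TPM (vertical axis, starting at 0 and scaled for each gene) of the 5 family genes in the control (blue) and Prdm16SMKO (red) libraries, with symbols for the replicate and the mean ± SD (n = 3) beside each group. The Prdm16SMKO libraries lie between 7.37 and 8.97 TPM for *Comp* and below every control library, while the groups overlap for *Thbs1*, *Thbs2* and *Thbs3*.

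*Comp* (ENSMUSG00000031849) lies on chromosome 8 of GRCm38, from 70373558 to 70382066 on the plus strand, and its longest coding transcript has 19 exons and 2416 nt. It was at 18.8, 22.9 and 19.2 TPM in control and at 7.37, 8.97 and 8.92 TPM in Prdm16SMKO replicates 1, 2 and 3. Every Prdm16SMKO library was below every control library, and the gap between the groups was wider than the range within either. Groups without overlap were found in 12.8% of all tested genes, with the lower values in Prdm16SMKO mice in 5.76% and the higher in 7.02%. The means were 20.3 ± 2.31 and 8.42 ± 0.910 TPM (n = 3 each, SD), and the log2 fold change was −1.22, with an SE (standard error) of 0.17 and a 95% interval from −1.60 to −0.84 (limma, Benjamini-Hochberg adjusted p = 0.0265). The exact permutation p was 0.1, the smallest it can give. Leaving out any 1 of the 6 libraries kept the log2 fold change between −1.27 and −1.13 but ended the call, with adjusted p-values from 0.0613 to 0.114.

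The other members set the scale for this difference. *Comp* made up 23.7%, 24.1% and 22.5% of the summed TPM of the 5 genes in control, and 10.8%, 9.23% and 13.8% in Prdm16SMKO libraries. Against *Thbs3*, a fellow pentameric member, *Comp* stood at 0.736, 0.907 and 0.938 in control and at 0.342, 0.374 and 0.536 in Prdm16SMKO libraries. These within-library ratios did not overlap between the groups, and no scaling of the libraries can change them. By mean, the order in control mice was *Thbs1*, *Thbs3*, *Comp*, *Thbs2* and *Thbs4*, and the ranges of neighbors overlapped except for *Thbs2* and *Thbs4*. *Comp* was above *Thbs2* in 3 of 3 control libraries and below it in 3 of 3 Prdm16SMKO libraries, where the ranges of this pair did not overlap.

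**Figure D2:**
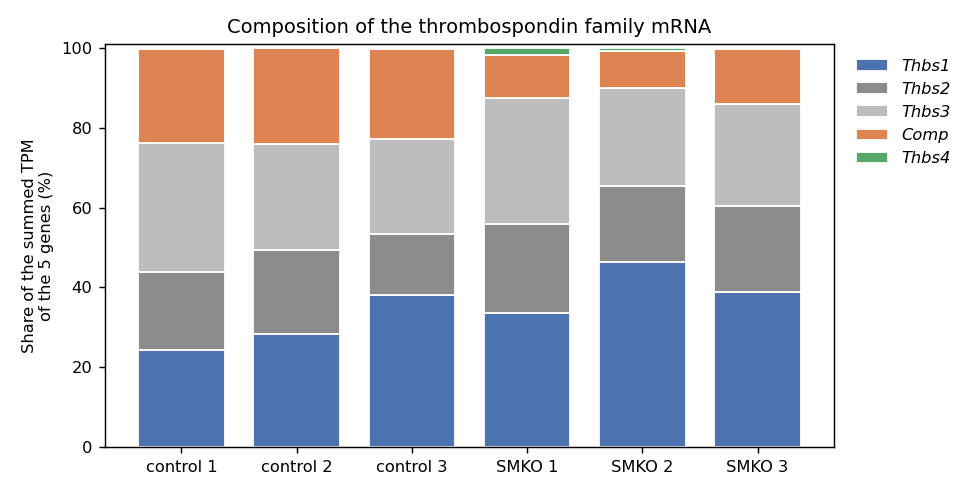
Share (%) of the summed TPM of the 5 family genes that each gene holds, for each of the 6 libraries. The *Comp* segment spans 22.5% to 24.1% in the control and 9.23% to 13.8% in the Prdm16SMKO libraries, and *Thbs1* is the largest segment in every library but control replicate 1.

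The level of *Comp* was also set against the cell types that can make it. Per 1000 TPM of the summed VSMC markers, *Comp* was at 1.14, 0.914 and 1.3 TPM in control and at 0.424, 0.668 and 0.785 TPM in Prdm16SMKO libraries, again without overlap. Of 10 chondrocyte markers only *Acan*, *Hapln1* and *Sox9* passed the expression minimum, and *Matn1* was at 0 in all libraries. *Col2a1*, the defining collagen of cartilage, did not exceed 0.53 TPM in any library. The summed chondrocyte markers were at 7.66 to 13.5 TPM in control and at 3.99 to 5.02 TPM in Prdm16SMKO libraries. This sum, most of it *Acan* and *Hapln1* in every library, was thus lower along with *Comp*. Whether this sum or the level of the VSMC markers had a part in the lower *Comp* was not tested.

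Among these markers, *Acan*, the large cartilage proteoglycan aggrecan, was at 2.97, 5.14 and 2.79 TPM in control and at 1.33, 1.08 and 1.57 TPM in Prdm16SMKO libraries (log2 fold change −1.14, limma, Benjamini-Hochberg adjusted p = 0.191). *Hapln1*, the link protein that anchors such proteoglycans to hyaluronan, was at 3.13, 6.05 and 4.32 TPM against 1.98, 2.04 and 0.87 TPM (−1.24, adjusted p = 0.238). In both genes the Prdm16SMKO libraries were all below the controls, as in 5.76% of all genes, yet neither was called. Both were named after their values were seen. Of 7 tenocyte markers *Kera* was at 0 in all libraries, and the summed level was at 66.6 to 73.7 TPM in control and 60.5 to 81.0 TPM in Prdm16SMKO libraries. Most of this sum was *Fmod* and *Scx* in every library, so it says little on the other markers. Without overlap between the groups, *Cilp2* was lower (means 1.17 in control and 0.223 TPM in Prdm16SMKO mice) and *Mkx* higher (1.80 and 3.19 TPM). Neither was called (limma, Benjamini-Hochberg adjusted p = 0.388 and 0.361).

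**Figure D3:**
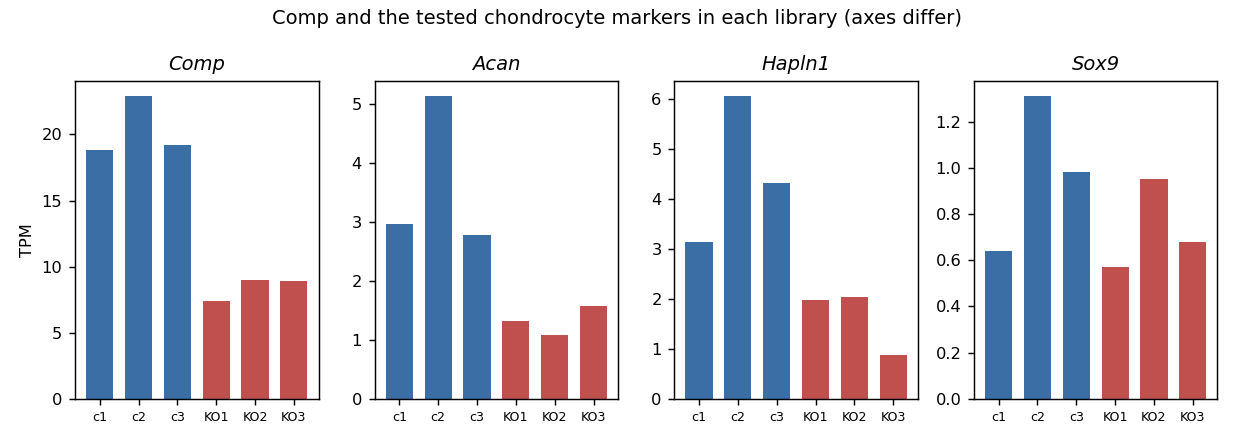
TPM of *Comp* and of the 3 chondrocyte markers that passed the expression minimum in each control (c1 to c3, blue) and Prdm16SMKO (KO1 to KO3, red) library, each panel on its own axis from 0. *Comp*, *Acan* and *Hapln1* are lower in all 3 Prdm16SMKO libraries than in any control library, and *Sox9* is between 0.57 and 1.31 TPM with overlapping groups.

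The genes next to *Comp* had log2 fold changes near 0. *Crtc1*, a CREB coactivator gene on the other strand whose nearer end lies 289 bp beyond *Comp*, had a log2 fold change of 0.01, and *Upf1*, a nonsense-mediated decay factor 20280 bp before it, had −0.12 with an interval from −0.50 to 0.26. Among 9665 genes averaging 5 TPM or more, the 3 whose log2 levels followed *Comp* most closely over the 6 libraries were *Adamtsl3* (root mean square difference 0.132), *Ccdc42* (0.136) and *Gem* (0.147). *Adamtsl3*, a secreted ADAMTS-like matrix protein with thrombospondin repeats, was at 35.3 ± 6.81 TPM in control and 15.8 ± 1.14 TPM in Prdm16SMKO mice (n = 3 each, SD). All 3 were lower in the 3 Prdm16SMKO libraries than in any control library, a pattern for which the measure of likeness chose them.

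*Thbs1* (ENSMUSG00000040152; chromosome 2, 118111876 to 118127133, plus strand, 22 exons and 5848 nt in the longest coding transcript) was the most abundant member, ranking 3079 of 15775 genes by mean TPM. It was at 19.2, 27.1 and 32.4 TPM in control and at 22.8, 45 and 25.2 TPM in Prdm16SMKO replicates 1, 2 and 3. Prdm16SMKO replicate 2 stood above every other library and the groups overlapped. The means were 26.2 ± 6.63 and 31.0 ± 12.2 TPM (n = 3 each, SD), with a log2 fold change of 0.20 (SE 0.29), an interval from −0.45 to 0.85 and an exact permutation p of 0.7 (limma, Benjamini-Hochberg adjusted p = 0.94). The interval spans both directions, and the log2 fold change was −0.10 without Prdm16SMKO replicate 2 and −0.00 without control replicate 1.

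Summed markers of other cells that make THBS1 were high in the same library. The 10 platelet and megakaryocyte markers added up to 115 TPM in Prdm16SMKO replicate 2 and to 17.3 to 33.4 TPM in the other 5 libraries, and 10 of 10 were highest there. The macrophage sum was 205 TPM in that library against 70.8 to 157 TPM in the others, and 8 of 8 markers were highest there. The endothelial sum was 461 TPM against 217 to 292 TPM, but only 3 of the 6 markers were highest there. Of the endothelial markers, *Kdr* had its lowest level in that library, at 5.04 TPM. The fibroblast sum was also highest there, at 1026 TPM against 575 to 787 TPM, with 5 of 6 markers highest. The libraries with the highest *Thbs1*, Prdm16SMKO replicate 2 and control replicate 3, held 29.8% and 31.4% of their TPM in 45S transcripts, the 2 highest shares of the 6. The part of these differences in the level of *Thbs1* was not tested.

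**Figure D4:**
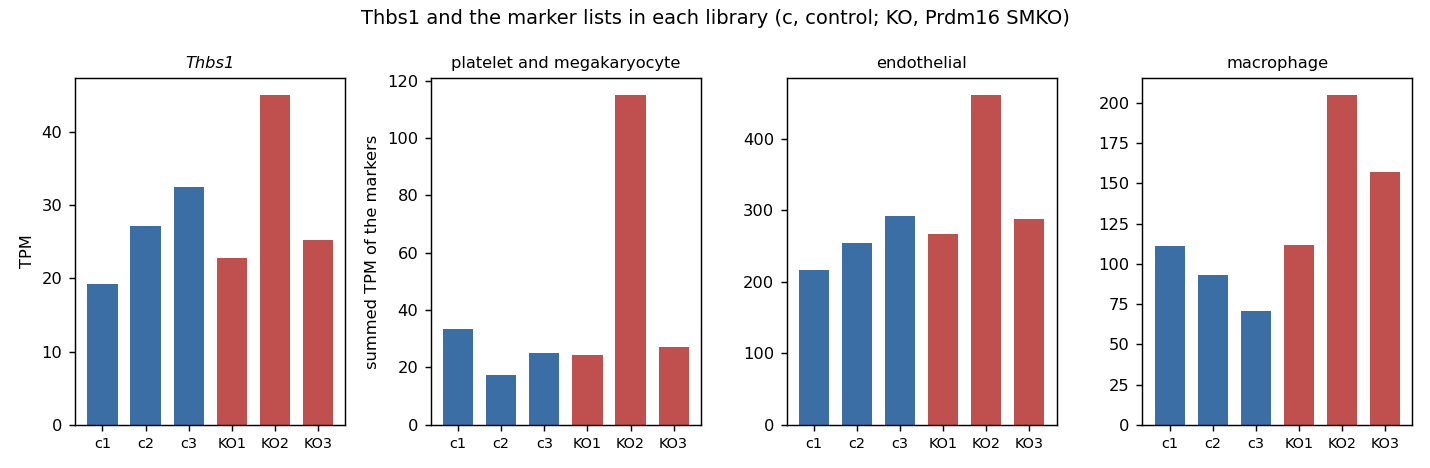
TPM of *Thbs1* (left) and summed TPM of the platelet and megakaryocyte, endothelial and macrophage marker lists in each control (c1 to c3, blue) and Prdm16SMKO (KO1 to KO3, red) library, each panel on its own axis from 0. Prdm16SMKO replicate 2 is the highest library in all 4 panels, with 45 TPM of *Thbs1* and 115 TPM of platelet and megakaryocyte markers.

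The genes whose levels followed *Thbs1* most closely were *Icam1* (root mean square difference 0.112), which encodes a leukocyte adhesion receptor, *Cp* (0.113), which encodes ceruloplasmin, and *Krt80* (0.147). *Icam1* was at 6.04, 8.15 and 12.1 TPM in control and at 7.55, 16.1 and 9.54 TPM in Prdm16SMKO libraries. Its order across the 6 libraries differed from that of *Thbs1* only in the places of control replicate 2 and Prdm16SMKO replicate 3. *Gm29233*, a long noncoding RNA gene that overlaps *Thbs1* on the other strand, was at 0 in all libraries, and the adjacent *Gm13986* and *Fsip1* were under the expression minimum.

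*Thbs2* (ENSMUSG00000023885; chromosome 17, 14665500 to 14694235, minus strand, 22 exons and 5895 nt), the other trimeric member, is known from fibroblasts, and its absence in mice alters collagen fibrils. It was at 15.5, 20.0 and 13.1 TPM in control and at 15.3, 18.3 and 14.0 TPM in Prdm16SMKO replicates 1, 2 and 3. The means of 16.2 ± 3.53 and 15.9 ± 2.23 TPM (n = 3 each, SD) gave a log2 fold change of −0.01 (SE 0.20) with an interval from −0.47 to 0.44 and an exact permutation p of 0.9 (limma, Benjamini-Hochberg adjusted p = 0.994). The Prdm16SMKO libraries all lay inside the control range. The highest and lowest *Thbs2* libraries, control replicates 2 and 3, were also those with the highest and lowest median-of-ratios size factors, 1.133 and 0.865. When TPM were divided by these factors the SE fell to 0.12 and the interval narrowed to −0.30 to 0.26. The genes most like *Thbs2* over the 6 libraries were *Pigs* (root mean square difference 0.011), *Ctnnd1* (0.024) and *Zfp526* (0.028), which differed between the groups by log2 fold changes of 0.00, −0.03 and −0.01. The adjacent *Gm38551* was at 0 in all libraries, and *Gm3222* was at 0 in all but 1.

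*Thbs3* (ENSMUSG00000028047; chromosome 3, 89215180 to 89226837, plus strand, 23 exons and 3190 nt), a pentameric member known from growing bone, was at 25.5, 25.3 and 20.4 TPM in control and at 21.6, 24.0 and 16.6 TPM in Prdm16SMKO libraries. The groups overlapped, with the lowest value of all in Prdm16SMKO replicate 3. The means of 23.7 ± 2.86 and 20.7 ± 3.75 TPM (n = 3 each, SD) gave a log2 fold change of −0.20 (SE 0.18), an interval from −0.62 to 0.22 and an exact permutation p of 0.4 (limma, Benjamini-Hochberg adjusted p = 0.886). The gene lies wholly inside the span of *Mtx1* on the other strand, and 318 of its 4823 exonic bases (6.59%) are shared with exons of *Mtx1*. The sources used here do not give the strand setting of the counting, so reads from the shared bases cannot be told apart. *Mtx1*, a mitochondrial outer membrane import gene, was at 30.9 ± 4.28 TPM in control and 34.2 ± 8.90 TPM in Prdm16SMKO mice (n = 3 each, SD), and its log2 fold change of 0.12 did not pass the test. *Rbp4*, *Mta1* and *Polr1c* followed *Thbs3* most closely, with root mean square differences of 0.040, 0.047 and 0.047. Of the adjacent genes, *Gm43737* had a log2 fold change of −0.07 and *Mir92b* was at 0 in all libraries.

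**Figure D5:**
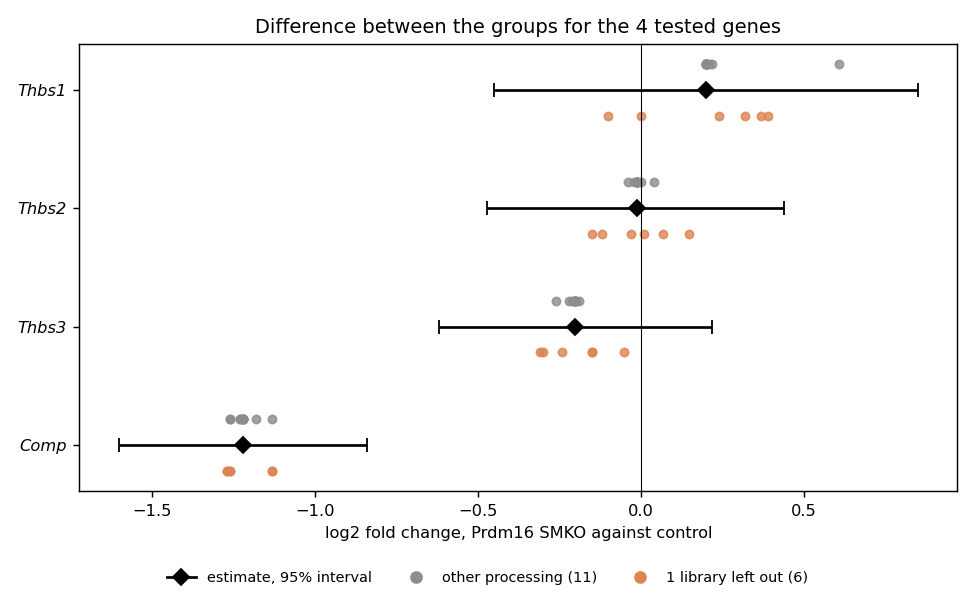
Log2 fold change (horizontal axis, Prdm16SMKO against control) of the 4 tested members, with the estimate and its 95% interval (black), the values under 11 other ways of processing (gray) and those with 1 library left out (orange). The values for *Comp* all lie between −1.27 and −1.13, whereas those for *Thbs1* and *Thbs2* fall on both sides of 0 and those for *Thbs3* between −0.31 and −0.05.

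*Thbs4* (ENSMUSG00000021702; chromosome 13, 92751590 to 92794818, minus strand, 22 exons and 3198 nt) was close to 0 in control aorta and uneven in Prdm16SMKO aorta. It was at 0.06, 0.07 and 0.11 TPM in control and at 1.10, 0.79 and 0.12 TPM in Prdm16SMKO replicates 1, 2 and 3. Prdm16SMKO replicates 1 and 2 were at 13.8 and 9.88 times the control mean, and replicate 3 at 1.5 times. The groups did not overlap, but their separation rests on 0.12 against 0.11 TPM, a gap of 1 step of the rounded table. *Mtx3*, the next gene after *Thbs4*, had a log2 fold change of 0.01, and the adjacent pseudogene *Gm5199* was at 0 in all libraries.

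The mean of *Thbs4* over the 6 libraries, 0.375 TPM, kept it out of the main test. The mean log2 difference was 0.91 on the log2(TPM + 0.5) scale, which understates the change of a gene this low, and the exact permutation p was 0.1. In a fit without an expression minimum, over 26559 genes, its interval ran from 0.07 to 1.74 and it was not called (limma, Benjamini-Hochberg adjusted p = 0.741). Replicate 3, in which *Thbs4* was at 0.12 TPM, had the lowest *Prdm16* of all libraries at 14.8 TPM. None of the 11 marker lists had its highest 2 sums in Prdm16SMKO replicates 1 and 2, but single markers could differ from the sum of their list. *Sox10*, of the neuron and Schwann cell list, was at 8.22 and 4.21 TPM in these replicates and at 0.59 to 3.47 TPM elsewhere. *Gp1bb*, of the platelet and megakaryocyte list, was at 4.30 and 6.52 TPM there and at 1.39 to 3.77 TPM elsewhere. The skeletal muscle sum was 71.0 TPM in replicate 1, in a range of 2.62 to 15.2 TPM elsewhere, and the neuron and Schwann cell sum was 408 TPM in replicate 1 and 50 TPM in replicate 2, against 12.0 to 97.8 TPM in the other libraries. Cardiomyocyte markers, from another muscle in which *Thbs4* is known, added up to 5.58 to 11.3 TPM in control and 11.2 to 17.6 TPM in Prdm16SMKO libraries. The list went both ways, with *Myl7* at 0 in all libraries. *Actc1* was higher in every Prdm16SMKO library than in any control library (means 8.67 and 3.63 TPM), and *Myh6* was lower (0.46 and 1.34 TPM). The part of these tissues in the level of *Thbs4* was not tested.

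The 250 bases before the transcription start are shown for *Thbs3* and *Thbs4*, the pentameric members with the highest and the lowest levels in control aorta (RefSeq, GRCm38.p6; capitals mark the GC box GGGCGG, the CCAAT box and the MCAT element, which reads CATTCC, searched on both strands, so that a match on the other strand appears as its reverse complement).
Thbs3 promoter, chr3:89214930-89215179, plus strand: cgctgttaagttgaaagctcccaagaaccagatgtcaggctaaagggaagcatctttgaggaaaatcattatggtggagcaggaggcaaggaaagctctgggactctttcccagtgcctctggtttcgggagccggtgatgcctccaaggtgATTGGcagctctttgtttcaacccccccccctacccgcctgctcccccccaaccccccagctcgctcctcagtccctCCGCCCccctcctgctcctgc
Thbs4 promoter, chr13:92794819-92795068, minus strand: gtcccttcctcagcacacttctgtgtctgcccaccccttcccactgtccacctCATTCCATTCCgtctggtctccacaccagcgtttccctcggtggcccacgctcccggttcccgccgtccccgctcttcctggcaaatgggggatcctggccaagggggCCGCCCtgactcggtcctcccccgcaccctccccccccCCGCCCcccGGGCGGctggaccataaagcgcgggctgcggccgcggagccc
The *Thbs4* promoter held 2 MCAT elements, which are known from muscle genes and bind TEAD factors, in tandem at 197 to 192 and 192 to 187 bases before the start, sharing 1 base, and 3 GC boxes. The *Thbs3* promoter held 1 CCAAT box and 1 GC box. The GC content was 70.8% for *Thbs4* and 58.8% for *Thbs3*, with a median of 52.4% over 32851 promoters. An MCAT element occurs in 12.6%, a GC box in 32.7% and a CCAAT box in 33.8% of promoters of this length. The TATA box TATAAA (12.4% of promoters), the AP-1 site TGANTCA (6.75%) and the E-box CACGTG (6.02%) were in neither, and these matches are letters, not measured binding.

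Receptors of the family were measured next. Of 21 receptors and cell-surface partners, all of which passed the expression minimum, 0 were called by limma, 4 had an unadjusted p under 0.05, and the median log2 fold change was −0.08 against 0.02 over all genes. An unadjusted p under 0.05 was found in 8.74% of all genes. The main THBS1 receptor genes *Cd47* and *Cd36*, named for that role, were at 30.6 ± 6.21 and 70.3 ± 10.6 TPM in control and at 30.1 ± 3.42 and 106 ± 69.4 TPM in Prdm16SMKO mice (n = 3 each, SD). The spread of *Cd36* came from Prdm16SMKO replicate 3, where it was at 185 TPM and the summed adipocyte markers were at 2346 TPM, against 461 to 951 TPM in the other libraries. Whether adipocytes had a part in the level of *Cd36* was not tested. *Lrp1*, the endocytic receptor that clears THBS2 complexes, was at 196 ± 18.6 and 192 ± 17.4 TPM. *Itgb3* and *Itga9*, integrin subunits that bind matrix ligands, had the smallest p-values of the list, with log2 fold changes of −1.02 and −0.77 (limma, Benjamini-Hochberg adjusted p = 0.15 and 0.247).

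Of 18 genes of the latent TGF-β pathway, which THBS1 can activate, 17 were tested, 0 were called and 1 had an unadjusted p under 0.05, with a median of −0.05. *Tgfb2* was at 19.7, 25.1 and 20.4 TPM in control and at 32.3, 34.9 and 27.2 TPM in Prdm16SMKO libraries (log2 fold change 0.53, limma, Benjamini-Hochberg adjusted p = 0.379). *Tgfb3* had a log2 fold change of −0.35 (adjusted p = 0.705). The groups were apart for *Tgfb2* and overlapped for *Tgfb3*.

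The matrix partners, collagens and other ligands of COMP and its relatives, had the lowest median of the 7 pathway lists besides the immediate-early genes. Of its 19 genes 14 were tested, 0 were called and 8 had an unadjusted p under 0.05, with a median of −0.46. In 7 of the 14 the Prdm16SMKO libraries were all below the controls (5.76% over all genes) and in 2 all above, and without Prdm16SMKO replicate 2 the number called was 1. *Lox*, the collagen cross-linking enzyme, was at 64.2 ± 3.36 TPM in control and 31.0 ± 10.8 TPM in Prdm16SMKO mice, and *Col14a1*, a fibril-associated collagen, was at 46.3 ± 2.60 and 86.7 ± 13.8 TPM (n = 3 each, SD; limma, Benjamini-Hochberg adjusted p = 0.108 and 0.0666). The list thus held values in both directions, and *Col2a1*, *Col9a1*, *Col9a2*, *Matn1* and *Matn3*, cartilage partners of COMP, were under the minimum.

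Among 11 proteinases that cleave family members or are cleared with them, 8 were tested, 0 were called and 0 had an unadjusted p under 0.05, with a median of 0.08. *Adamts1*, which cleaves THBS1 and THBS2, and *Mmp19* had the smallest p-values, with log2 fold changes of −0.33 and 0.32 (limma, Benjamini-Hochberg adjusted p = 0.75 and 0.828). Of 16 other matricellular genes, 14 were tested, 0 were called and 5 had an unadjusted p under 0.05, with a median of −0.20. In this list 12 of 14 were below 0, against 7223 of 15775 over all genes. *Ccn1*, which encodes an integrin-binding matricellular protein, was at 688, 699 and 519 TPM in control and at 65.0, 211 and 175 TPM in Prdm16SMKO libraries (log2 fold change −2.23, SE 0.39, adjusted p = 0.0638). *Ccn3*, of the same family, had −0.75 (adjusted p = 0.119). Both were lower without overlap between the groups, as were 5.76% of all genes, and neither was called. Without Prdm16SMKO replicate 1 the number called in this list was 1.

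For the endoplasmic reticulum chaperones and ATF6 response, the setting in which THBS4 has been described, 16 of 16 genes were tested, 0 were called and 0 had an unadjusted p under 0.05, with a median of −0.03. *Xbp1*, a stress response factor, and *Hspa5*, the chaperone BiP, had log2 fold changes of 0.30 and −0.31 (limma, Benjamini-Hochberg adjusted p = 0.665 and 0.666). Immediate-early genes respond within minutes to stimuli or to tissue handling. Of 19 such genes 6 were called, all lower in Prdm16SMKO mice, with a median of −0.98. Over all genes, 0.171% were called lower. The list was chosen with earlier results of these data known, so the number called is not independent of that choice. The 6 called were *Nr4a1* (log2 fold change −2.45), *Arc* (−2.0), *Atf3* (−1.66), *Nr4a2* (−1.40), *Fosb* (−1.36) and *Egr3* (−1.29), with adjusted p-values from 0.00762 to 0.0414. The number called was 0 without control replicate 2, 1 without control replicate 1, 2 without control replicate 3, and 3 without any 1 of the Prdm16SMKO replicates.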

How the data were processed

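RNA of mouse abdominal aorta was sequenced as 151 bp read pairs after poly(A) selection. The authors deposited 1 table of TPM, rounded to 2 decimals, for the 6 libraries. The submitters' processing notes name bcl2fastq, cutadapt 2.3, FastQC 0.11.8, STAR 2.7.8a, RSEM 1.3.3, MultiQC 1.7 and GRCm38, and the annotation release and strand setting are not given in the sources used here. TPM keep no read depth, so no counting error was computed. Libraries were assigned to groups by their labels, and 0 pairs of libraries held identical values.

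Genes averaging 0.5 TPM or more were compared as log2(TPM + 0.5) with limma 3.58.1 in R 4.3.3 (variance trend, two-sided, Benjamini-Hochberg adjustment over 15775 genes, called under 0.05), after the fit was tested on simulated data. Single genes also had an exact two-sided permutation test. The members and gene lists were chosen with earlier results of these data known. Named were the members, *Prdm16*, the called genes of each list or else the 2 with the smallest p, the 3 genes most like each tested member, and adjacent or overlapping genes. Markers at 0 in all libraries were also named. *Cd47*, *Cd36*, *Lrp1*, *Acan*, *Hapln1*, *Sox9*, *Fmod*, *Scx*, *Cilp2*, *Mkx*, *Kdr*, *Sox10*, *Gp1bb*, *Actc1*, *Myh6* and the matrix partners under the minimum were named beyond that rule, after their values were seen. Likeness was the root mean square difference of mean-centered log2 levels over 6 libraries. Positions came from GENCODE M21 and promoters from RefSeq, which held 3 of the 5 members. The processing was varied in 17 ways: pseudocount 0.1 or 1, no minimum or 2 TPM, size factors, quantile normalization, rescaling without mitochondrial and 45S genes, variances without a trend or robust, array weights, a replicate block, and 6 fits without 1 library. Python 3.11.15 with pandas 2.3.3, numpy 2.4.6 and matplotlib 3.10.9 served for tables and plots.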

Additional observations from a re-analysis of the deposited data

How the results depend on the processing

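*Comp* was lower in Prdm16SMKO mice in each of the 17 alternatives, by log2 fold changes from −1.27 to −1.13, and was called in 8 of them. Its adjusted p (limma, Benjamini-Hochberg) was lowest with array weights, at 0.00423. The value stayed at −1.22 and the call ended with no expression minimum (adjusted p 0.11), with variances without a trend (0.0652) and with the replicate block (0.137), which left 0 members called. With 1 library left out the value ran from −1.27 to −1.13, the adjusted p from 0.0613 to 0.114, and the number of members called was 0 each time. The replicate numbers are not stated to pair the animals. Deviations of same-numbered libraries from their group means correlated at −0.13, −0.11 and 0.02 (Pearson's r across genes). With 3 libraries a group, whose deviations are tied to each other, these values cannot decide whether libraries were paired. Under the replicate block 4 genes of 15775 were called in place of 56. Over all genes the other settings called from 5 genes, without control replicate 2, to 494, with array weights, with 10 without an expression minimum, 17 without control replicate 1 or 3, 28 without Prdm16SMKO replicate 2, 33 without a variance trend, 112 with robust variances, 123 with rescaling, 129 with quantile normalization and 153 with size factors.

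*Thbs1* changed sign without control replicate 1 (−0.00) and without Prdm16SMKO replicate 2 (−0.10), ran from −0.10 to 0.39 with 1 library left out, and reached 0.61 with array weights. In that fit its 95% interval, from 0.07 to 1.16, lay above 0, and it was not called (limma, Benjamini-Hochberg adjusted p = 0.201). *Thbs2* changed sign with rescaling (0.00) and array weights (0.04), and with 1 library left out it ran from −0.15 to 0.15. *Thbs3* kept its sign, and neither it nor *Thbs1* or *Thbs2* was called in any alternative. The mean log2 difference of *Thbs4* moved from 0.91 to 1.79 with a pseudocount of 0.1 and was 0.58 with a pseudocount of 1, 1.23 with rescaling, 0.63 without Prdm16SMKO replicate 1 and 1.31 without Prdm16SMKO replicate 3. Of the lists, immediate-early genes called numbered 0 without a minimum, 2 without a variance trend, 10 with array weights and 1 under the replicate block, and 0 to 3 with 1 library left out. Matrix partners called numbered 1 with size factors, quantile normalization, rescaling or robust variances and 4 with array weights. Other matricellular genes called numbered 1 with a minimum of 2 TPM, size factors, quantile normalization or rescaling and 2 with array weights. Receptors called numbered 1 with size factors and 1 with array weights, and the latent TGF-β pathway 1 with array weights. With 1 library left out, 0 to 1 matrix partners and 0 to 1 other matricellular genes were called, the receptor median ran from −0.30 to 0.08 and the proteinase median from −0.18 to 0.15. The causes were not tested. The depth of the libraries is unknown, so no counting error could be given for *Thbs4*.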
